A study of Arabidopsis thaliana with 12 samples.

Results

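The anthocyanin branch described here is a set of 8 Arabidopsis thaliana genes out of 18273 that had a translated open reading frame (ORF) in shoots or roots. It holds the enzymes DFR (AT5G42800), LDOX (AT4G22880), UGT78D2 (AT5G17050), UGT79B1 (AT5G54060), UGT75C1 (AT4G14090) and 5MAT (AT3G29590), the glutathione transferase TT19 (AT5G17220) and the transcription factor PAP1 (AT1G56650). The set was chosen by pathway role and selected on the shoot and root counts of these same tables, and each ORF whose name began with one of the 8 loci was used. They were 8 of 21128 ORFs in the shoot set and 5 of 21768 in the root set. The shoot over root contrast was thus used in the choice, so it is given as a description and was not tested.

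The shoots and roots came from wild-type Col seedlings aged 4 days, grown in shaken liquid medium with 1% sucrose at 22 °C under 16 h of light and 8 h of dark. Both tissues were harvested 3 h after the lights came on. All groups shared this genotype, medium and age, and the labels give, per tissue, 3 samples of ribosome footprints and 3 of RNA depleted of rRNA. Ribosome profiling sequences the RNA fragments that ribosomes protect. The tables used here held 1 count per ORF for each tissue with no value per replicate, and RNA-seq values were not analysed here. No difference below therefore has a replicate check or a p-value, and transcript level was not separated from translation.

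Anthocyanins are the red to purple pigments that plant cells store in the vacuole. Their synthesis starts from phenylalanine, passes through the shared flavonoid steps to dihydroflavonols, and divides there. FLS1 turns dihydroflavonols into flavonols, whereas DFR reduces them toward anthocyanins and LDOX then forms the coloured anthocyanidin. Sugars and acyl groups are added next, and TT19 is needed for the pigment to reach the vacuole. In Arabidopsis, PAP1 is a MYB factor that switches on the late steps together with basic helix-loop-helix (bHLH) partners such as TT8 and the WD-repeat protein TTG1. Anthocyanins of Arabidopsis seedlings are known mainly from the cotyledons and upper hypocotyl.

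All 8 members were listed in shoot, and 5 were listed in root. The root set lacked TT19, 5MAT and PAP1. Of all 18273 genes, 8.3% stood in the shoot set alone, 11.4% in the root set alone and 80.3% in both sets. Each member had a single ORF per tissue, all in the category of annotated coding sequence. None had an upstream ORF, which was listed for 0.401% of all genes in shoot and 0.621% in root. A gene absent from a tissue's set was not called there, and this does not show that it was untranslated. The largest ORF counts of all genes summed to 95481490 in shoot and 113381941 in root, and shares below are of these sums. The 8 members together held 179948 shoot counts, or 0.188% of the sum, against 10570 counts or 0.00932% for the 5 listed in root. DFR and LDOX made up 66.2% of the members' shoot counts, whereas UGT78D2 alone made up 74.2% of their root counts.

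DFR, the first enzyme committed to the branch, had 73793 counts in shoot (exact Poisson 95% interval 73262 to 74327) and 1557 in root (1481 to 1636). Such intervals cover counting error only, and reads without molecular identifiers are not independent molecules. The shoot ORF lay on the minus strand of chromosome 5 from 17164299 to 17165863 (TAIR10), in 6 exon blocks. Its share of the shoot sum was 56.3-fold its share of the root sum, a log2 ratio of 5.81 (5.74 to 5.89). Ratios are of shares with a pseudocount of 0.5. The DFR ORF listed in root was shorter, so this ratio compares ORFs of 382 and 360 codons, and per codon it was 53.0-fold.

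LDOX, the dioxygenase that makes anthocyanidins, had 45401 counts in shoot (44984 to 45821) and 674 in root (624 to 727) over an ORF of 356 codons with the same coordinates in both. It lay on the minus strand of chromosome 4 from 12004908 to 12006058, in 2 blocks. The ratio was 79.9-fold, or 6.32 on the log2 scale (6.21 to 6.43). LDOX ranked 1 among the 11610 genes with an identical ORF and at least 100 counts in the higher tissue. By every gene's largest ORF, it ranked 11 among 14659 genes and UGT75C1 ranked 10. The set was chosen with this contrast known, so these ranks are a description only.

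TT19, a phi class glutathione transferase also named GSTF12, had 11211 counts in shoot (11004 to 11420) and was not listed in root. Its ORF of 214 codons lay on the plus strand of chromosome 5 from 5658529 to 5659321, in 3 blocks. Among 1437 nuclear coding genes listed in shoot only, whose median count was 404, TT19 ranked 10 by count. GSTF11 (AT3G03190), another phi class member, was listed in both tissues with 749 counts in shoot and 1505 in root.

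The sugar-adding enzymes did not share 1 pattern. UGT78D2, which puts glucose on the 3 position of anthocyanidins and also of flavonols, had 18883 counts in shoot (18615 to 19154) and 7848 in root (7675 to 8024). Its ORF of 460 codons on the minus strand of chromosome 5 (5607831 to 5609391) was identical in both tissues, and the ratio of 2.86-fold (2.78 to 2.93) was the smallest of the 5 members with a ratio. UGT79B1, which adds xylose to that glucose, had 8650 counts in shoot (8469 to 8834) and 278 in root (246 to 313). The ratio was 36.9-fold (32.8 to 41.8), over 468 codons in 1 block on chromosome 5 from 21936905 to 21938307. UGT75C1, which adds glucose at the 5 position, had 16192 counts in shoot (15944 to 16443) and 213 in root (185 to 244). Its 2 listed ORFs differed in start, and the ratio of their shares was 90.1-fold, or 79.6-fold per codon. UGT78D2 thus stood apart from the glycosyltransferases that act after it.

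5MAT, which adds malonate to the sugar placed by UGT75C1, had 4557 counts in shoot (4426 to 4691) and was not listed in root. Its ORF was a single block of 449 codons on the minus strand of chromosome 3, from 11398920 to 11400265. It ranked 50 by count among the nuclear coding genes of shoot only. PAP1, the MYB regulator, had 1261 counts in shoot (1192 to 1333) over 248 codons on the minus strand of chromosome 1 (21233717 to 21235088), and was not listed in root. It ranked 314 among those 1437 genes. The members absent from root were thus an enzyme, the transferase and the regulator, and they included the 2 members with the lowest shoot counts as well as TT19, whose shoot count exceeded that of UGT79B1.

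By the size used here, 2 of the 3 members with an identical ORF were at least 4-fold higher in shoot, against 8.76% of the 11610 genes with such an ORF. Taking every gene's largest ORF instead, 4 of 5 members were at least 4-fold higher in shoot, against 9.53% of 14659 genes, and 0 of 5 were at least 4-fold higher in root, against 9.89%. Because the genes were chosen with this contrast known, nothing is read from these counts. The median log2 ratio was 5.20 over the 3 members, and -0.33 over all genes with an identical ORF. Scaling on the median gene instead of the sum raises each of the 5 ratios by about that amount and leaves all above 0. It moves the share of the 4-fold calls that lie on the shoot side, over all genes, to 62.1% from the 51.4% found with the sums.

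Levels between genes were compared as counts per codon, which were not scaled for the depth of the sets. DFR had 193 counts per codon in shoot and LDOX 128, followed by TT19 with 52.4, UGT78D2 with 41.1, UGT75C1 with 35.5, UGT79B1 with 18.5, 5MAT with 10.1 and PAP1 with 5.08. The level of DFR was 38.0-fold that of PAP1. In shoot the counting intervals of neighbours in this order did not overlap, which says nothing of differences between plants. Among the members, the enzymes of the first 2 steps of the branch, DFR and LDOX, had the highest levels. The malonyltransferase 5MAT had the lowest level of the member enzymes, and the transcription factor PAP1 stood below all of them. This order covers the members only, as the decoration enzymes SCPL10 and BGLU10, described below, had 19.7 and 2.77 counts per codon in shoot. Among 16057 nuclear coding genes in shoot, whose median was 3.65 counts per codon, DFR lay at percentile 98.3, LDOX at 97.2, 5MAT at 74.7 and PAP1 at 58.7.

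The order differed in root. UGT78D2 came first there with 17.1 counts per codon, followed by DFR with 4.33, LDOX with 1.89, UGT79B1 with 0.594 and UGT75C1 with 0.529. The intervals of the last 2 overlapped (0.526 to 0.668 for UGT79B1, 0.460 to 0.604 for UGT75C1). Among 16667 nuclear coding genes in root, with a median of 4.80, UGT78D2 lay at percentile 79.3, DFR at 47.1, LDOX at 24.9, UGT79B1 at 5.93 and UGT75C1 at 4.86. LDOX had 0.660 times the level of DFR in shoot and 0.438 times in root.

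**Figure D1:**
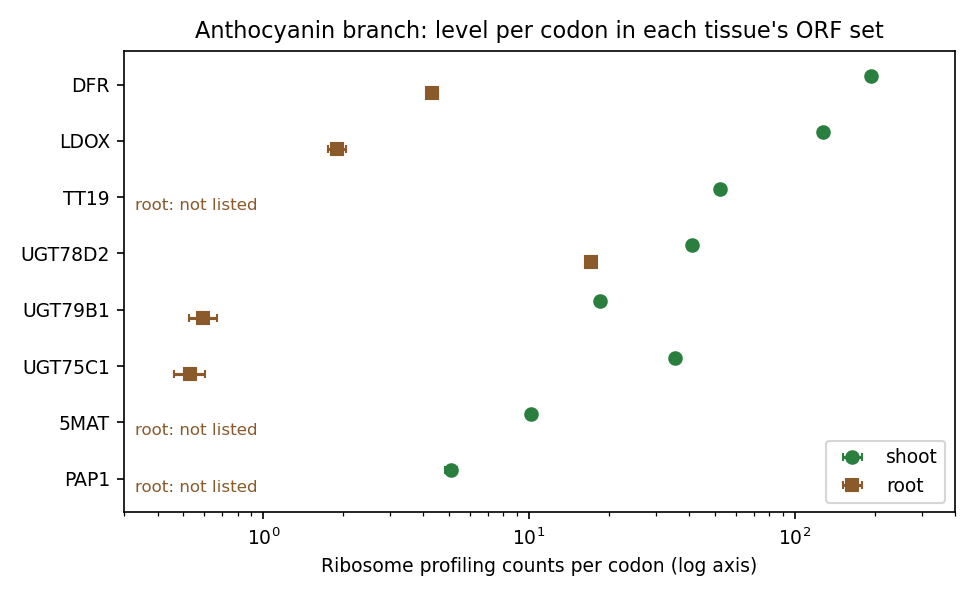
Ribosome profiling counts per codon (log axis) of the 8 genes, with shoot as circles and root as squares and bars for the exact Poisson 95% interval, which is often smaller than the symbol. Shoot levels span 5.08 for PAP1 to 193 for DFR, root levels span 0.529 for UGT75C1 to 17.1 for UGT78D2, and TT19, 5MAT and PAP1 were not listed in root.

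Markers of each tissue were checked against the same sets. The 4 shoot markers LHCA1, RBCS1A, LHCB5 and PSAF, proteins of photosynthesis, were all listed in both tissues, with 1716960 counts in shoot and 55832 in root. These counts are of the largest ORFs. Over identical ORFs, their root share was 2.16% to 3.68% of their shoot share. The 2.16% was RBCS1A, whose identical ORF had 57 codons and a log2 ratio of 5.53, against 5.43 by its largest ORF. For the members, the root share was 1.25% of the shoot share for LDOX, 1.78% for DFR, 1.11% for UGT75C1, 2.71% for UGT79B1 and 35.0% for UGT78D2. For DFR and UGT75C1 these are largest ORFs of unequal length. The root counts of LDOX, DFR and UGT75C1 were thus smaller, relative to shoot, than those of the 4 photosynthesis genes, whose own root counts have a part in these results that was not tested. Of the 4 root markers, EXPA7, CASP1, PYK10 and MYB36, all were also listed in shoot, with a shoot share of 2.06% (EXPA7) to 55.4% (PYK10) of the root share. In whole organs, fewer cells making a protein and less RNA per cell cannot be told apart.

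The steps upstream of the branch were described next, from lists of pathway genes. These lists were also chosen with earlier results of these data known, so shares over all genes are given as description only. Of the 8 genes of general phenylpropanoid metabolism, which make the precursor of flavonoids and of lignin, 7 were listed in both tissues and 6 had an identical ORF. Their median log2 ratio was -1.08, and 2 of the 6 were at least 4-fold higher in root, against 8.28% of all genes with an identical ORF. The ligase 4CL2 had 2469 counts in shoot and 18545 in root (6.32-fold higher in root) and 4CL1 had 8921 in shoot and 57243 in root (5.40-fold). 4CL3, the ligase tied to flavonoids, was the highest of the list at 0.54, with 8564 counts in shoot and 6989 in root. PAL3 was listed in shoot only with 3562 counts. PAL4, with no identical ORF, had 536 counts in shoot and 3109 in root. PAL1, the first enzyme of the route, was named after its value was seen, and had 67418 counts in shoot and 163724 in root (-1.03).

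All 5 genes of the early flavonoid steps had an identical ORF and a ratio above 0, with a median of 0.79. Over all genes with an identical ORF, 36.3% lay above 0. As this list was chosen with earlier results known, nothing is read from that difference. The lowest was F3H, flavanone 3-hydroxylase, with 36671 counts in shoot and 28890 in root (0.59). The highest was TT7, the flavonoid 3'-hydroxylase that adds the hydroxyl group found in cyanidin and quercetin, with 12896 counts in shoot and 2216 in root (6.91-fold higher in shoot). TT4, chalcone synthase, chosen after its value was seen, had 149809 counts in shoot and 102858 in root (1.73-fold). ORFs of all 5 were therefore listed in root, where TT4 had 260 counts per codon and F3H 80.7.

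Of the 6 genes of the flavonol branch, 4 were listed, each with an identical ORF, and UGT78D3 and UGT73C6 were in neither set. Their median ratio was -0.24, which becomes 0.092 with median scaling. UGT78D1, which adds rhamnose to flavonols, was the highest with 16593 counts in shoot and 1288 in root (15.3-fold higher in shoot). OMT1, a methyltransferase of flavonol and lignin synthesis, was the lowest with 65256 counts in shoot and 132746 in root (-0.78). FLS1, flavonol synthase, chosen after its value was seen, had 11717 counts in shoot and 23100 in root (-0.73, or -0.40 on median scaling).

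**Figure D2:**
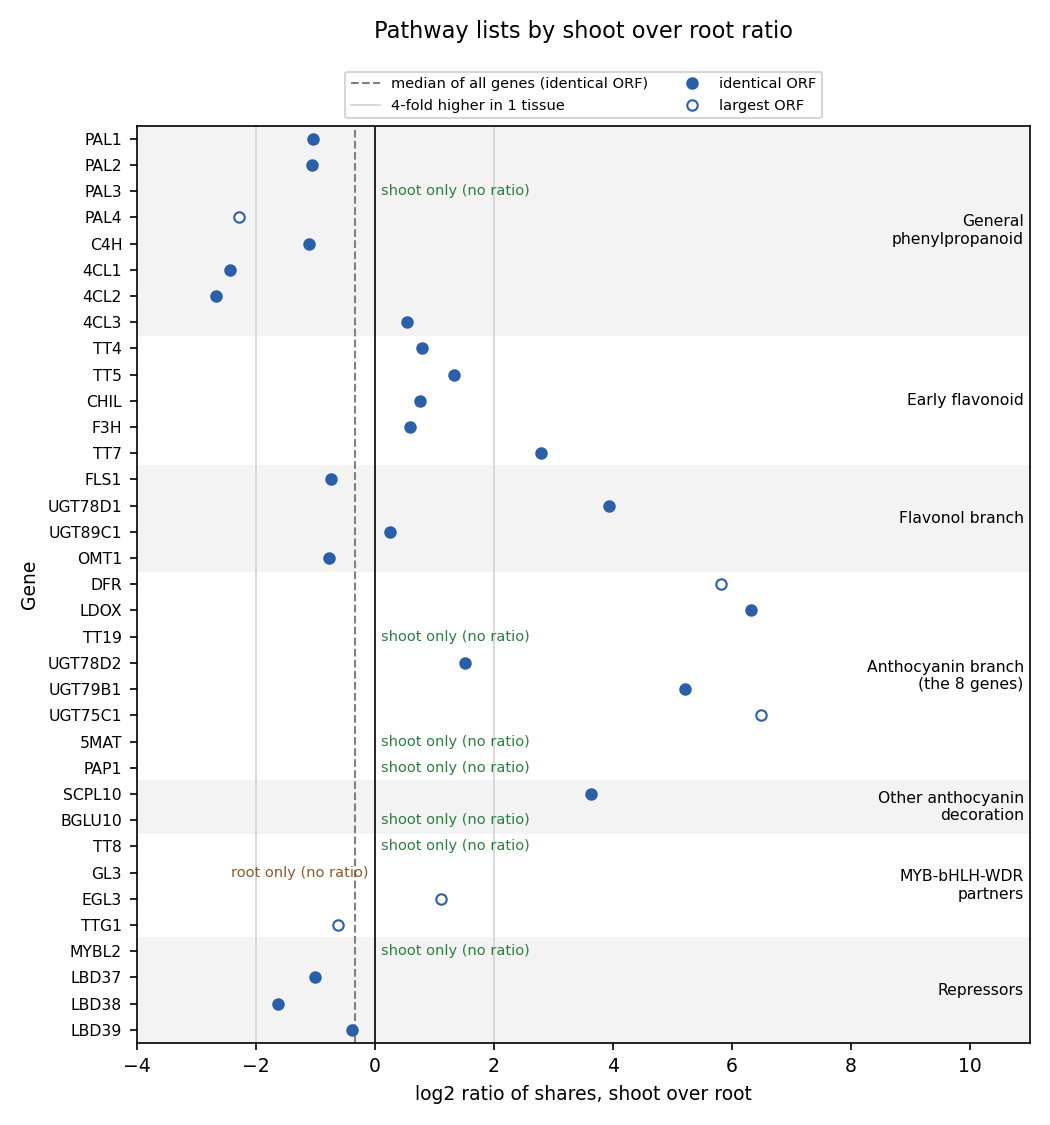
The log2 ratio of shares, shoot over root, for genes listed in at least 1 tissue. The lists drawn are general phenylpropanoid, early flavonoid, flavonol branch, the members, other anthocyanin decoration, regulators of the PAP1 complex and repressors. The proanthocyanidin, flavonol MYB and close relative lists are not drawn. Filled circles are identical ORFs and open circles the largest ORFs, the dashed line is the median of all genes at -0.33, grey lines mark 4-fold, and genes of 1 tissue only are written as text. The 5 early flavonoid genes lie between 0.59 and 2.79 and the anthocyanin genes with a ratio between 1.51 and 6.49. Of the 6 general phenylpropanoid genes with an identical ORF, 5 lie below 0, as do 63.7% of all 11610 such genes.

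DFR and FLS1 draw on the same dihydroflavonols, and their levels were set side by side within each tissue. These ratios do not depend on the scaling between tissues. The pair was chosen after the values were seen. In shoot, DFR had 193 counts per codon and FLS1 34.9, so that DFR was 5.54-fold higher (counting interval 5.43 to 5.65). In root, DFR had 4.33 and FLS1 68.8, and FLS1 was 15.9-fold higher (15.1 to 16.7). The order of both enzymes was thus opposite in the 2 tissues, and the DFR to FLS1 ratio in shoot was 88.1-fold that in root. Set against F3H, which makes their common substrate, DFR was 1.89-fold higher in shoot, and F3H was 18.7-fold higher than DFR in root.

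A like comparison was made for the sugar-adding enzymes UGT78D2 and UGT78D1, which are relatives that transfer different sugars to the same position of flavonols. In shoot, UGT78D2 had 41.1 counts per codon and UGT78D1 36.6, a ratio of 1.12 (1.10 to 1.14). In root they had 17.1 and 2.84, and UGT78D2 was 6.0-fold higher (5.66 to 6.37). This pair was also chosen after the values were seen. Here the member of the anthocyanin set was the one less shifted toward shoot, with 2.86-fold against 15.3-fold for UGT78D1.

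**Figure D3:**
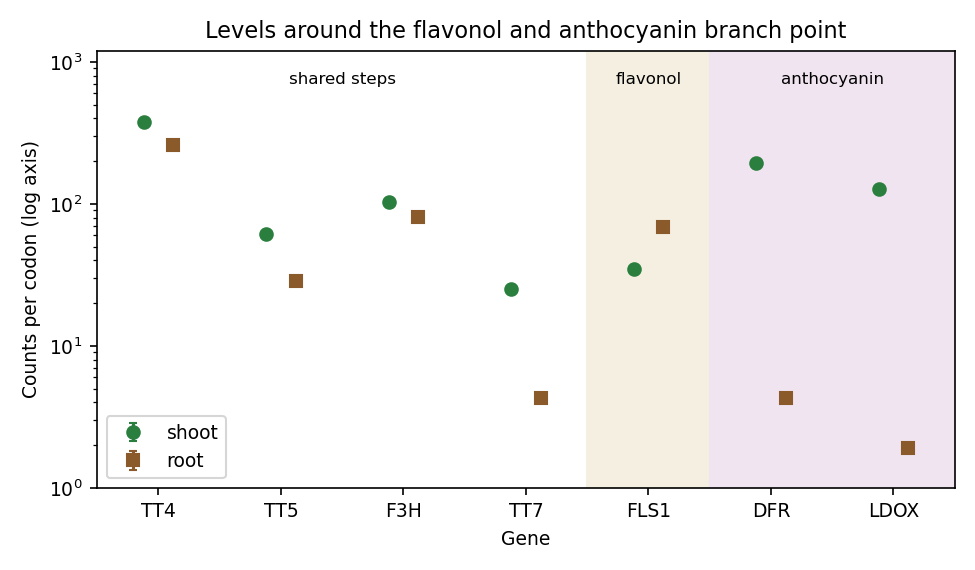
Counts per codon (log axis) in shoot (circles) and root (squares) for the shared steps TT4, TT5, F3H and TT7, the flavonol enzyme FLS1 and the anthocyanin enzymes DFR and LDOX, with exact Poisson 95% intervals that are smaller than most symbols. The values are not scaled for the depth of the sets. TT4 is at 379 in shoot and 260 in root, FLS1 is at 34.9 in shoot and 68.8 in root, and DFR and LDOX are at 193 and 128 in shoot against 4.33 and 1.89 in root.

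Other enzymes that decorate anthocyanins were looked up as well. Of 4 such genes, SCPL10, the acyltransferase that adds sinapate, had 8629 counts in shoot and 825 in root, a ratio of 12.4-fold over an identical ORF. It belongs to a tandem family of related genes, so its reads could be split among copies. BGLU10, a glucosyltransferase of the glycoside hydrolase type, was listed in shoot only with 1409 counts. The coumaroyltransferases 3AT1 and 3AT2 were in neither set. Of these 4 genes, SCPL10 was thus over 4-fold higher in shoot and BGLU10 was in shoot only. Over all genes with an identical ORF, 8.76% were at least 4-fold higher in shoot. Of the genes listed in either tissue, 8.3% were in shoot only. The members 5MAT, UGT79B1 and UGT75C1 are not counted here. This list was, like the members, chosen with earlier results of these data known, so nothing is read from these shares. Of 5 genes of the proanthocyanidin branch, which makes the tannins of the seed coat, the reductase BAN, the transporter TT12 and the MYB factor TT2 were in neither set. AHA10 and TT10 were listed in shoot only, with 45 and 39 counts, or 0.104 and 0.0690 counts per codon.

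Of 7 regulators of the complex in which PAP1 acts, 1 was listed in shoot only, 1 in root only, 2 in both tissues and 3 in neither. TT8, the bHLH partner of the late flavonoid genes, was listed in shoot only with 1136 counts (1071 to 1204), or 2.19 counts per codon against 5.08 for PAP1. GL3, a related bHLH factor that also acts in hair cell patterning, was listed in root only with 848 counts (792 to 907). EGL3, the third of these bHLH factors, was in both with 861 counts in shoot and 475 in root, over ORFs of 596 and 475 codons that differ in start. TTG1, the WD-repeat partner, was in both with 1408 counts in shoot and 2559 in root, from different transcripts. The PAP1 relatives PAP2, MYB113 and MYB114 lie next to each other on chromosome 1 and were in neither set, which left PAP1 as the listed gene of that MYB group. Close copies can share reads, so their absence is uncertain.

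Among the 3 flavonol MYB factors, MYB12 was listed in root only with 2209 counts and MYB111 in shoot only with 656, and MYB11 was in neither set. Of 6 genes known to hold back anthocyanin synthesis, MYBL2, a small MYB protein, was listed in shoot only with 445 counts. The LBD genes, which repress the pathway in response to nitrogen, had identical ORFs with ratios below 0, as had 63.7% of all such genes. LBD38 had 2761 counts in shoot and 10174 in root (-1.63), LBD37, named after its value was seen, 8317 in shoot and 19878 in root (-1.01), and LBD39 4052 in shoot and 6300 in root (-0.39, or -0.05 on median scaling). CPC and SPL9 were in neither set. None of the 3 LBD genes reached 4-fold, and neither direction nor size has a replicate check.

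Close relatives of TT19, 5MAT and the member glycosyltransferases were looked up in each tissue's set, and shared reads were not measured. The list held no relative of DFR or LDOX, so shared reads were not considered for them. AT4G22870, the gene next to LDOX, was in neither set. UGT78D3, UGT78D4 and UGT78D2 follow each other on chromosome 5. UGT78D3 was in neither set, and UGT78D4 was in root only with 661 counts, against 7848 for UGT78D2 in root. UGT79B2 was in root only with 2374 counts, and its neighbour UGT79B3, a near copy, was in neither, so the placement of this pair is uncertain. UGT75B1 was listed in shoot only with 1098 counts and UGT75B2 in root only with 649, again as relatives that may share reads. UGT75D1 had 3408 counts in shoot and 974 in root (4.15-fold higher in shoot). Of the malonyltransferases related to 5MAT, PMAT1 had 1128 counts in shoot and 97 in root (13.7-fold), PMAT2 was in shoot only with 188, and AT3G29635 was in root only with 573. Of the 10 relatives, 3 were listed in both tissues and 1 in neither, while 2 were found for shoot alone and 4 for root alone. Of all 18273 genes listed in either tissue, 80.3% were in both, 8.3% in shoot alone and 11.4% in root alone. As several relatives may share reads, no tissue preference is read from this split.

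The ORFs listed for DFR and UGT75C1 began at different positions in the tissues. The DFR ORF started at transcript position 55 in shoot and 121 in root and ended at the same stop, so that the root ORF lacked 22 codons, or 5.76% of the shoot ORF. That start lay in the first exon block, of which 117 bases were covered in shoot and 51 in root, and the other 5 blocks were the same. The UGT75C1 ORF started at position 32 in shoot and 191 in root, which removed 53 codons, or 11.6%, from its single block on chromosome 4 (8122437 to 8123803 in shoot, 8122437 to 8123644 in root). Both shifts kept the reading frame. Since block lengths and coding lengths differed by 1 base, the printed ends carry that uncertainty.

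Start differences over all genes were counted for comparison. Among 11142 nuclear genes with 1 coding ORF in each tissue on the same transcript and with the same stop, 78.1% had the same start, 9.72% started downstream in root and 12.2% downstream in shoot. Of the 2442 genes with different starts, the shorter ORF was in the tissue of lower share in 1821 (74.6%). A shorter ORF has fewer counts by its length alone, and with levels per codon the number was 1701 (69.7%). Among the 1041 of the 11142 genes that were at least 4-fold higher in shoot, 280 (26.9%) started downstream in root and 16 (1.54%) downstream in shoot. Per codon, these were 241 (24.0%) and 19 (1.89%) of 1005 genes. Where the root start was downstream, the median loss was 34 codons, and 61.2% of those genes lost at least as many codons as DFR and 36.7% at least as many as UGT75C1. The root ORF of EGL3 lacked 121 codons of the shoot ORF. PAL4, higher in root, had its shoot start 37 codons downstream. The files do not show whether ribosomes begin at the later position, and a difference in start was not tested at equal counts.

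**Figure D4:**
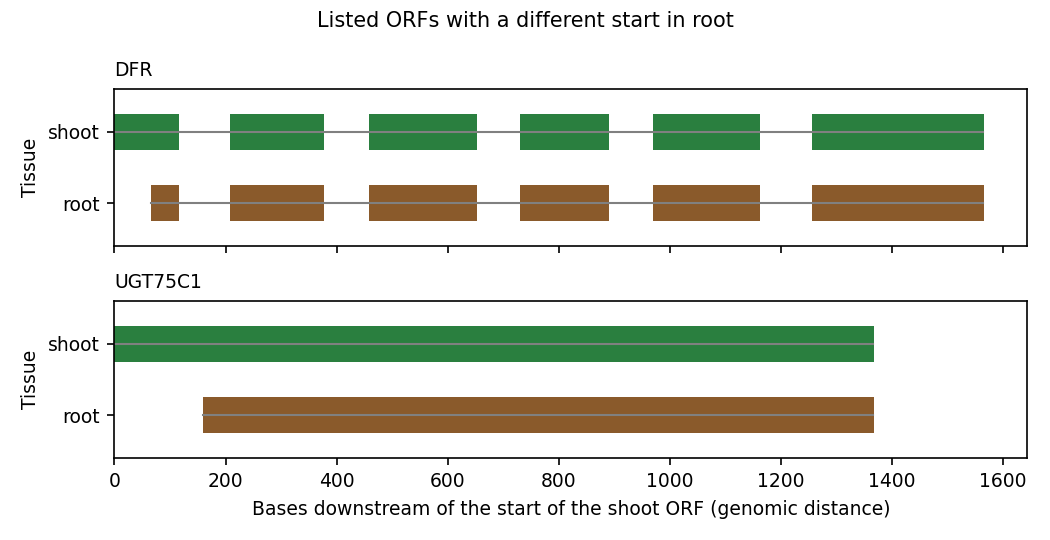
Exon blocks of the ORFs listed for DFR and UGT75C1, with shoot above root, drawn to scale by genomic distance in bases from the start of the shoot ORF. The root ORF of DFR begins 66 bases later and that of UGT75C1 159 bases later, and both end at the same place as in shoot.

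The gene models of the 8 ORFs also differed in structure. DFR had 6 coding blocks, TT19 and PAP1 had 3, LDOX and UGT78D2 had 2, and UGT79B1, UGT75C1 and 5MAT had 1. The introns between the DFR blocks were 78 to 92 bases, whereas the first of PAP1 was 540 bases. The start codon lay 31 bases (UGT75C1) to 100 bases (UGT78D2) from the start of the named transcript, apart from 5MAT, whose transcript model began at the start codon. The members listed in both tissues were named on the same transcript model in both. Their introns follow from that model, and splicing was not measured.

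Genes near the members' median point were found by distance in the plane of log2 counts per codon in shoot and in root. The point was the median of LDOX, UGT78D2 and UGT79B1, the members with an identical ORF, at 41.1 counts per codon in shoot and 1.89 in root. It joins the shoot level of UGT78D2 to the root level of LDOX, and the 3 genes themselves lay 1.64 (LDOX), 3.17 (UGT78D2) and 2.03 (UGT79B1) log2 units from it, so it matches no single member. The 5 nearest genes with an identical ORF were ZKT (AT1G55480) at a log2 distance of 0.05, LQY1 (AT1G75690) at 0.09, MFP1 (AT3G16000) at 0.15, PME44 (AT4G33220) at 0.23 and FdC1 (AT4G14890) at 0.24. ZKT had 40.2 counts per codon in shoot and 1.84 in root. These genes are near that point and are not shown to be like any member.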

How the data were processed

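The data were 2 tables of translated ORFs, 1 for shoot and 1 for root, deposited by the authors with 1 whole-number count per ORF, repeated on each exon block and not scaled by length or depth. The unit was read from the values, whose minimum was 6 in each table. The submitters' processing notes name TAIR10 as the genome build, and STAR 2.5.1b and Bowtie2 as tools of unstated role. Which program called the ORFs, and whether replicates were pooled for it, is not given in the sources used here.

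Blocks of 1 name were joined into 1 ORF, and the positions in its name gave the codons. Shares used the sum over genes of the largest ORF count. Each ratio is the log2 share in shoot minus that in root, after adding 0.5 to the counts, from the longest coding ORF with the same blocks in both tissues. Genes under 100 counts in both tissues were left out. The largest ORF was used, and named, where none was identical. Intervals at 95% are exact Poisson for counts and exact binomial for ratios. No test was made. Gene symbols came from the labels of the lists, and all 70 list entries matched a locus tag of a RefSeq table (TAIR10.1), used for names and neighbours only. The members and lists were chosen with earlier results of these data known. Named genes were all members, the genes of each list that were 4-fold higher in a tissue or listed in 1 tissue, the extremes of each list, and the 5 nearest genes. The alternatives were a pseudocount of 5, median scaling, nuclear sums, the largest ORF, no count filter, a count minimum of 100 per ORF and the ORF with the most codons. Ratios and start counts per codon were added after the data were seen. The ratio step was tested on simulated counts. Software was Python 3.11.15 with matplotlib 3.10.9, scipy 1.17.1, pandas 2.3.3 and numpy 2.4.6.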

Additional observations from a re-analysis of the deposited data

How the results depend on the processing

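No ratio of a member changed its direction or its side of 4-fold under any alternative run. Scaling on the median gene moved DFR to 6.15, LDOX to 6.65, UGT78D2 to 1.85, UGT79B1 to 5.54 and UGT75C1 to 6.83 on the log2 scale, and the members' median to 5.54, by construction of the scaling. The same scaling moved the list medians to -0.75 for general phenylpropanoid genes, 1.12 for early flavonoid genes, 0.092 for the flavonol branch, 3.97 for other decoration genes, -0.67 for repressors and 2.39 for close relatives. Sums over nuclear genes shifted all members by the same amount, to 5.85 for DFR, 6.36 for LDOX, 1.55 for UGT78D2, 5.25 for UGT79B1 and 6.53 for UGT75C1. The largest ORF of each gene raised the members at least 4-fold higher in shoot to 4 and their median to 5.81, as DFR and UGT75C1 entered, and moved the general phenylpropanoid median to -1.11 and its genes at least 4-fold higher in root to 3, as PAL4 entered. Per codon, the DFR ratio was 5.73 and the UGT75C1 ratio 6.31. With at least 100 counts per ORF, 8 members remained listed in shoot and 5 in root. No paired analysis was possible because each tissue has 1 column of counts with no value per replicate, and for the same reason no replicate could be left out. The members with the fewest counts were UGT75C1 (213) and UGT79B1 (278) in root, and relative counting error is widest for their values.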
